A study of Rattus norvegicus with 9 samples.

Results

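The 10 genes described here encode the immediate early transcription factors Egr1, Egr3, Fos, Jun, Junb, Atf3, Klf6 and Nr4a1, and the secreted proteins Ccn1 and Ccn2. They were chosen by name, as every probe set whose single gene symbol in the annotation of the array is one of these 10 symbols, and each probe set was kept apart. On this type of array, several short probes against one transcript form a probe set, which yields a single value. Of 10411 genes with a single symbol on the array these are 10, and they had 14 of the 15866 probe sets that are not controls: 3 for Jun, 2 each for Fos and Klf6, and 1 for each of the other 7 genes.

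The arrays carried kidney RNA from 9 rats, 4 labelled case and 5 labelled control, with 1 RAE230A array of total RNA per animal. The title of the series concerns hypotension, and the sources used here do not give strain, sex, age, the treatment of the case animals or the time of sampling. Animals are named by their numbers in the labels: case animals 3, 5, 7 and 8, and control animals 4, 9, 10, 11 and 12. Signals are the deposited intensities on a linear scale in arbitrary units, which had been scaled to a common trimmed mean near 100.02 on every array.

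Immediate early genes are transcribed within a short time of a stimulus without the need for new protein, and their transcripts are short-lived. Growth factor and stress signals reach them through the ERK and JNK kinases, serum response factor and CREB. Fos and Jun proteins pair to form the AP-1 transcription factor, Egr proteins bind GC-rich sites, and Atf3 is a stress-induced member of the ATF/CREB family. Ccn1 and Ccn2 (formerly Cyr61 and Ctgf) are matricellular proteins whose genes respond quickly to YAP with TEAD factors, and Ccn2 also to TGF-beta. In the kidney, immediate early genes are known for their induction after ischemia and obstruction, and Ccn2 for its link to fibrosis.

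Ccn2 had the largest mean difference among the tested probe sets and Ccn1 a mean difference of the opposite sign, neither past the threshold after adjustment, so their promoters are shown first, as reference sequence for the genes described below. The 250 bases before the RefSeq transcript start (build GRCr8, both genes on the minus strand) lie at chr2:237225690-237225939 for Ccn1 and at chr1:22624615-22624864 for Ccn2. Capitals mark each GGAATG, the core letters bound by TEAD factors, or its reverse complement CATTCC.
Ccn1: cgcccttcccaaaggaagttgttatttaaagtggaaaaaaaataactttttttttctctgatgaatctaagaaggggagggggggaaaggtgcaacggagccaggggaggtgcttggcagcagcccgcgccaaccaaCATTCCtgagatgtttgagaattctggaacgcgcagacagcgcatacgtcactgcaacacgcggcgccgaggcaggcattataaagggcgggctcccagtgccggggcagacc
Ccn2: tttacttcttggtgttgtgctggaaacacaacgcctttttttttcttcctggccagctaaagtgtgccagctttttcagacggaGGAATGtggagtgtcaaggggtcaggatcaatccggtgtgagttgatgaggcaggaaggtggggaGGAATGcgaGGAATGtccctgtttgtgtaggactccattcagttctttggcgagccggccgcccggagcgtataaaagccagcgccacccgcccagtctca

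Ccn2 held 3 matches, whose first bases lie at -166, -101 and -92 from the transcript start, and Ccn1 held 1, at -113. Nr4a1 also held 1, at -211, among the 6 genes with a promoter in the table. Of 33469 rat promoters of this length in the RefSeq table, 12.06% held at least 1 match on either strand and 0.078% held 3 or more. Both CCN promoters also held TATAAA, read on the strand of the gene, at -34 in Ccn1 and at -31 in Ccn2, as did Junb at -49 and 8.06% of all. Ccn1 held the letters CGTCA, one arm of the CREB site TGACGTCA, at -67. On either strand CGTCA occurred in 18.22% of all promoters. A match describes letters in this window and is not evidence of binding.

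Promoters of Egr1, Junb, Klf6 and Nr4a1 were the others of the 10 genes in the table, so that 6 of 10 could be searched. The Egr1 window held 2 CArG boxes, the sites read by serum response factor, starting at -105 and -83, and the Klf6 window held 1, at -201. CArG boxes were present in 1.5% of all promoters, counted on both strands. Nr4a1 held CGTCA 4 times, at -246, -226, -82 and -53, Egr1 held it at -135 and -66, and Junb held its complement at -155. Counted on either strand, CGTCA occurred 3 or more times in 0.448% of all promoters. The full site TGACGTCA was in none of the 6 windows, against 1.59% of all.

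Differences are case minus control on the scale log2(signal + 5.03), where the added 5.03 is 10% of the median signal of the table and makes the differences of dim probe sets appear smaller. Probe sets were tested with limma when their mean of all 9 arrays was above the 40th percentile of such means, near a signal of 33.3. Of the 14 probe sets, 10 passed this filter, for Egr1, Egr3, Jun, Junb, Klf6, Nr4a1 and Ccn2. The probe sets of Fos, Atf3 and Ccn1 did not pass and are given as values. After Benjamini-Hochberg adjustment over all 9519 probe sets tested, 0 of the 10 passed the threshold of 0.05, where 0% of all probe sets passed and the smallest adjusted p of any was 0.136. At an unadjusted p under 0.05 there was 1 of the 10, Ccn2, against 6.69% of all tested. In 0 of the 10 did the case and control values lie wholly apart, against 1.88% of all tested.

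**Figure D1:**
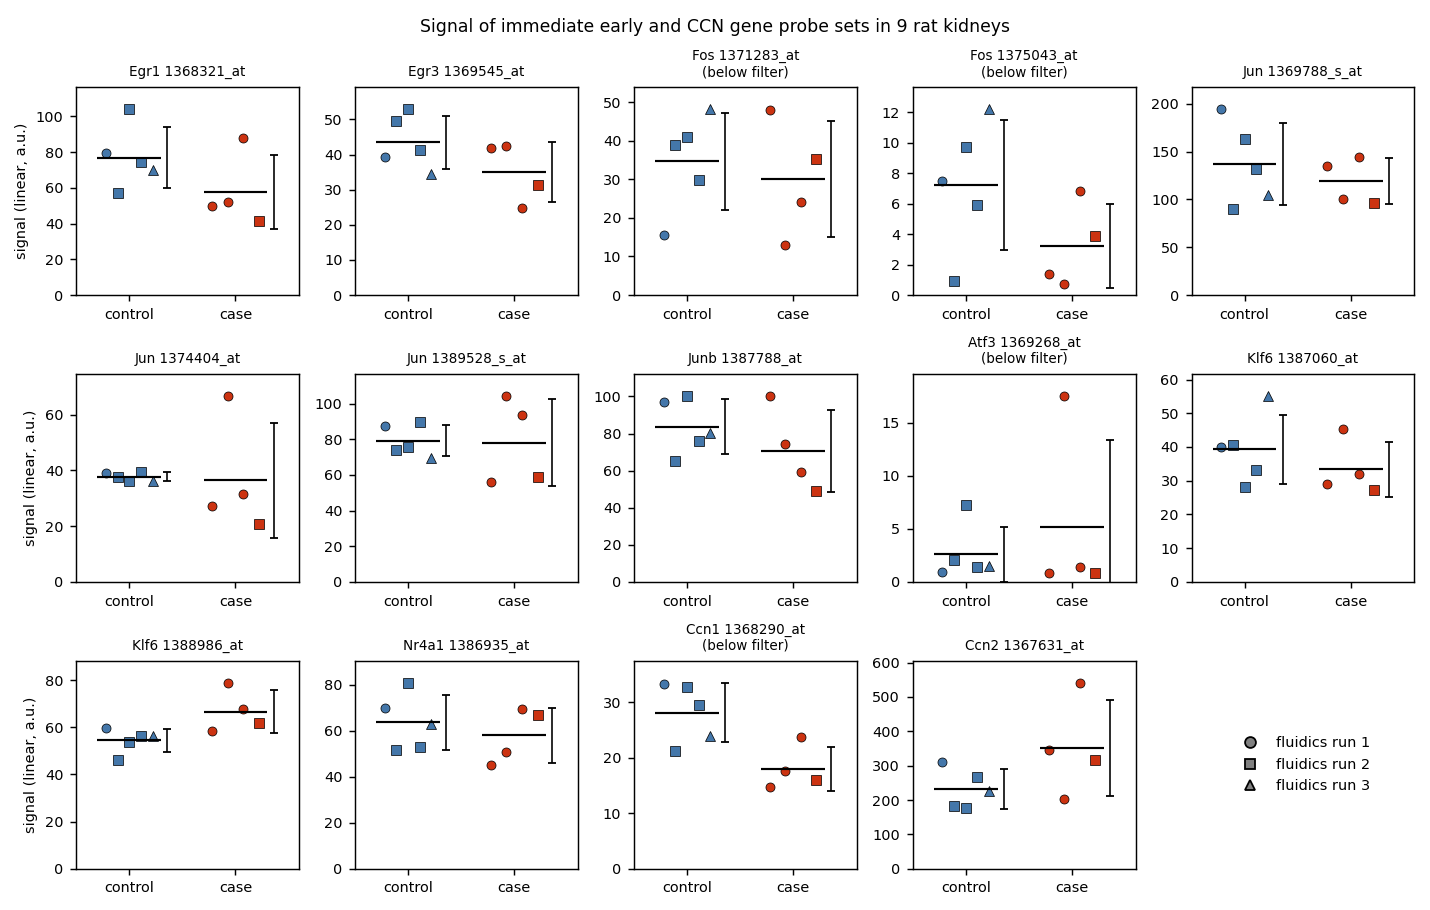
Signal (linear scale, arbitrary units) of the 14 probe sets in 5 control (blue) and 4 case (red) kidneys, with the group mean as a line, the SD as a bar beside it and the fluidics run as the marker shape. The groups overlap in every panel, and the Atf3 panel shows case animal 5 at 17.5 where the other case animals lie at 1.4 or below.

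The largest difference among the tested probe sets was that of Ccn2 (1367631_at), a matricellular protein known as a target of TGF-beta and YAP. Its signal was 345.1, 203.5, 540.9 and 317.1 in case animals 3, 5, 7 and 8, and 310.9, 182.4, 176.0, 267.7 and 225.4 in control animals 4, 9, 10, 11 and 12. Case animals 3, 7 and 8 lay above every control, and case animal 5 lay among the controls. Case animals averaged 352 ± 140 (SD, n = 4), and controls 232 ± 57.3 (SD, n = 5). The log2 difference was 0.54 ± 0.25 (SE), with a 95% interval from 0.01 to 1.07 (limma adjusted p = 0.744). It was 0.30 without case animal 7, 0.37 with the fluidics run as a block and 0.17 when adjusted for the Gapdh 3'/5' ratio, which rises as RNA is shortened. Its unadjusted p rose above 0.05 with quantile normalization, without the intensity trend, with the run as a block, adjusted for either 3'/5' ratio, and without any one of case animals 3, 7 or 8 or control animals 9, 10 or 12. It stayed under 0.05 in the other alternatives that were tested. Among those, the difference was 0.62 with median centring, 0.56 with array weights and 0.77 without case animal 5. None passed the threshold after adjustment.

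Ccn1 (1368290_at), the other immediate early member of the CCN family measured here, lay at dimmer signals. It gave 14.8, 17.6, 23.7 and 16.1 in case animals 3, 5, 7 and 8, and 33.3, 21.3, 32.8, 29.5 and 23.9 in control animals 4, 9, 10, 11 and 12. The highest case animal, number 7, lay above control animal 9 and just below control animal 12, and the other 3 case animals lay below every control. Case animals averaged 18.1 ± 3.94 (SD, n = 4) and controls 28.2 ± 5.36 (SD, n = 5), which is -0.52 on the log2 scale. With a pseudocount of 1% of the median the difference was -0.63, and with 50% it was -0.30. In a limma fit to all 15866 probe sets, with no filter, its SE was 0.22 and its 95% interval ran from -0.99 to -0.05 (adjusted p = 0.746). Within the fluidics runs that had case and control animals, the difference was -0.71 in run 1, where the only control is animal 4. It was -0.62 in run 2, where the only case animal is 8.

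Egr1 (1368321_at), a zinc finger factor induced by growth factors and stress, gave signals of 50, 51.9, 87.8 and 41.2 in case animals 3, 5, 7 and 8. In control animals 4, 9, 10, 11 and 12 it gave 79.3, 57.0, 104.0, 74.6 and 69.8. Case animals 3, 5 and 8 lay below every control, while case animal 7 exceeded all controls but animal 10. The case mean was 57.7 ± 20.6 (SD, n = 4), and the control mean 76.9 ± 17.3 (SD, n = 5). This was a log2 difference of -0.41 ± 0.21 (SE), with a 95% interval from -0.88 to 0.05 (limma adjusted p = 0.784). Within fluidics run 2 the difference was -0.82 and within run 1 it was -0.35, and without case animal 7 it was -0.62.

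Egr3 (1369545_at), a relative of Egr1, ranged from 24.7 to 42.4 in case and from 34.5 to 52.9 in control. Both of the lowest animals, numbers 7 and 8, were case, and the other case animals lay within the control range. The log2 difference was -0.29 ± 0.20 (SE; limma adjusted p = 0.843). Adjusted for either the actin or the Gapdh 3'/5' ratio, it was -0.10.

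Fos, the partner of Jun in AP-1, was read by 2 dim probe sets. At 1371283_at the signals were 48.1, 12.9, 24.2 and 35.2 in case animals 3, 5, 7 and 8, and 15.5, 38.9, 40.9, 29.8 and 48.2 in control animals 4, 9, 10, 11 and 12. The case and control ranges coincided almost completely, and the log2 difference was -0.22. Within fluidics run 1 the same probe set had a difference of 0.56, where the only control is animal 4, and with the run as a block it had 0.26.

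The other Fos probe set, 1375043_at, ranged from 0.7 to 6.8 in case and from 0.9 to 12.2 in control, a log2 difference of -0.55. On a fit with no filter its 95% interval ran from -1.23 to 0.13 (limma adjusted p = 0.845), and that of 1371283_at from -0.98 to 0.55 (adjusted p = 0.963). Signals this low respond strongly to the pseudocount: with 1% of the median in its place the 1375043_at difference was -1.09, and with 50% it was -0.19. Fosb, another Fos family gene that immediate early signals induce, ranged from 1.8 to 5.1 in case and from 0.9 to 9.1 in control.

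Jun, the central AP-1 subunit, had 3 probe sets that all passed the filter. Those ending in _s_at have probes that can match more than one transcript. At 1369788_s_at the signals were 135.4, 100.7, 144.7 and 96.4 in case animals 3, 5, 7 and 8, and 194.5, 90.3, 163.2, 132.2 and 105.0 in control animals 4, 9, 10, 11 and 12. The groups overlapped over the whole case range, with a log2 difference of -0.16 ± 0.21 (SE; limma adjusted p = 0.929).

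The Jun probe set 1374404_at behaved differently from the first in its spread. Its 5 control signals lay between 36.1 and 39.6, while the case signals were 27.1, 66.7, 31.4 and 20.7 in animals 3, 5, 7 and 8. One case animal, number 5, thus lay above and the other 3 below every control. The SD on the log2 scale was 0.64 in case and 0.05 in control, and the difference of the means was -0.16 ± 0.26 (SE; limma adjusted p = 0.950). Case animals 5 and 7 were also the brightest of all 9 at 1389528_s_at, at 104.3 and 93.5, where the control range was 69.6 to 89.7 and the log2 difference -0.06 ± 0.19 (SE; limma adjusted p = 0.981).

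Junb (1387788_at), an AP-1 subunit that often counters Jun, gave 100.1, 74.3, 59.5 and 48.8 in case animals 3, 5, 7 and 8, and 97.2, 65.0, 100.2, 75.8 and 80.3 in control animals 4, 9, 10, 11 and 12. Case animals 7 and 8 lay below every control and case animal 3 lay level with the highest. The log2 difference was -0.26 ± 0.20 (SE; limma adjusted p = 0.870), and -0.02 when adjusted for the actin ratio. It was -0.43 without case animal 3 and -0.11 without case animal 8. Case animals 7 and 8 had the highest log2 actin 3'/5' ratios of the 9 arrays, 1.61 and 1.64, against 0.16 to 0.998 in the other animals. Adjusted for the Gapdh ratio instead, the Junb difference was -0.23. A link between either ratio and the Junb difference was not tested.

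Atf3 (1369268_at), a stress-induced repressor and activator, was near the bottom of the scale in most animals. Signals were 0.8, 17.5, 1.4 and 0.8 in case animals 3, 5, 7 and 8, and 0.9, 2.1, 7.2, 1.4 and 1.5 in control animals 4, 9, 10, 11 and 12. The log2 difference of 0.19 came from case animal 5, without which it was -0.29. The other 3 case animals lay at or below 1.4.

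Klf6, a zinc finger factor induced in injured tissue, had 2 probe sets that differed in sign. At 1388986_at the signals were 58.3, 78.8, 67.6 and 61.8 in case animals 3, 5, 7 and 8, and 59.5, 46.3, 53.7, 56.5 and 56.1 in control animals 4, 9, 10, 11 and 12. All but case animal 3 exceeded every control, and case animal 3 was passed by control animal 4 alone. Mean signal was 66.6 ± 8.98 (SD, n = 4) and 54.4 ± 4.99 (SD, n = 5), a log2 difference of 0.27 ± 0.14 (SE) with a 95% interval from -0.05 to 0.58 (limma adjusted p = 0.786). At 1387060_at case ranged from 27.3 to 45.2 and control from 28.0 to 55.1, a log2 difference of -0.20 ± 0.21 (SE; limma adjusted p = 0.912).

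Nr4a1 (1386935_at), an orphan nuclear receptor induced early by many signals, ranged from 45.2 to 69.6 in case and from 51.8 to 80.9 in control. Its log2 difference was -0.12 ± 0.18 (SE), with a 95% interval from -0.51 to 0.26 (limma adjusted p = 0.936). Within fluidics run 1 the difference was -0.34 and within run 2 it was 0.14.

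**Figure D2:**
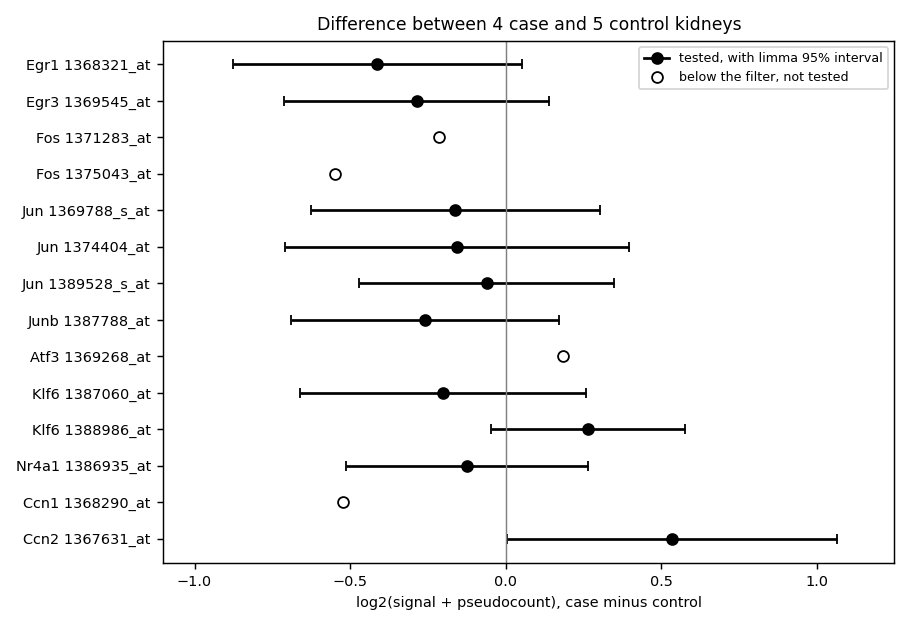
Difference between the means of 4 case and 5 control kidneys on the log2(signal + 5.03) scale for each probe set, with limma's 95% interval for the 10 tested (filled) and no interval for the 4 below the filter (open). The interval of Ccn2, from 0.01 to 1.07, is the only one that leaves out 0, and none of the adjusted p-values is under 0.05.

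Of the 10 tested probe sets, 8 had differences below 0 and 2 above 0, Ccn2 and Klf6 1388986_at, and 1 of the 8, Jun 1389528_s_at, was above 0 at 0.03 with median centring. Their median difference was -0.16, against -0.02 over all probe sets tested, of which 46.0% lay above 0. The median of the 10 was -0.08 with quantile normalization, -0.07 with median centring and -0.05 when adjusted for the actin ratio. Adjusted for the Gapdh ratio it was -0.08, with 6 of the 10 below 0. Since 3 of the 10 belong to Jun and 2 to Klf6, these are fewer than 10 independent values. In 9 of the 10 the 95% interval lay wholly between -1 and 1. Ccn2 was the exception, with an upper end of 1.07.

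Fluidics runs touched both groups unevenly. Run 1 held case animals 3, 5 and 7 with control animal 4, run 2 held case animal 8 with control animals 9, 10 and 11, and run 3 held control animal 12. With the run as a block, Egr1 stood at -0.58, Junb at -0.49, Jun 1369788_s_at at -0.49 and Jun 1374404_at at -0.37, each farther from 0 than without it. Ccn2 moved the other way, to 0.37, with 0.11 within run 1 and 0.62 within run 2. Adjusted for the actin ratio, Ccn2 stood at 0.32 and Egr1 at -0.37. The log2 Gapdh 3'/5' ratio was 1.06, 0.63, 1.26 and 0.95 in case animals 3, 5, 7 and 8, and 0.64 to 0.84 in control. Case animals 3, 7 and 8, which lay above every control at Ccn2, were also above every control in this ratio, and case animal 5 was not in either. The ratio thus ran partly with the group, so adjusting for it cannot tell the ratio and the group apart. The cause of the Ccn2 difference was not tested. Adjusted for the Gapdh ratio, an alternative added after seeing the data, Ccn2 stood at 0.17, Egr1 at -0.65 and Junb at -0.23. Of the probe sets below the filter, that of Ccn1 stood at -0.58, those of Fos at -0.69 and -0.96 and that of Atf3 at 0.75. None of these passed the threshold after adjustment over all probe sets, where tested.

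**Figure D3:**
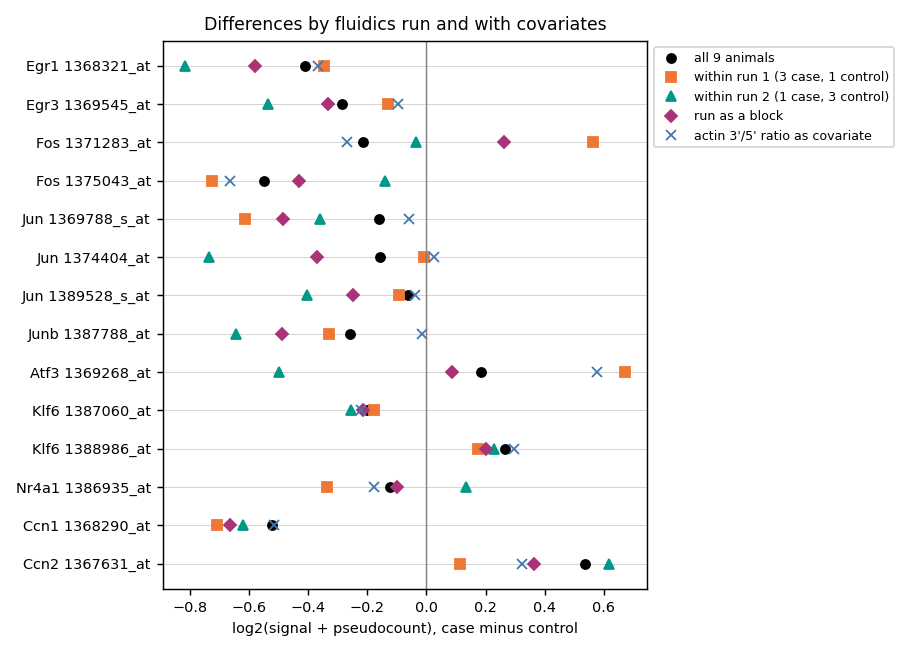
Log2 difference of each probe set over all 9 animals (black), within fluidics run 1 (3 case, 1 control), within run 2 (1 case, 3 control), with the run as a block, and adjusted for the log2 actin 3'/5' ratio. Egr1, Egr3, Fos 1375043_at, Jun 1369788_s_at, Jun 1389528_s_at, Junb, Ccn1 and Klf6 1387060_at stay below 0 throughout and Ccn2 and Klf6 1388986_at above 0, while Fos 1371283_at, Atf3, Jun 1374404_at and Nr4a1 have values on both sides.

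The order of the animals differed from probe set to probe set. Over the 9 animals the range of a tested probe set had a median of 0.96 on the log2 scale, against 0.77 over all probe sets tested, and 9 of the 10 ranges exceeded the latter. These ranges were not matched for signal level, and Jun and Klf6 each entered with more than one probe set. Control animal 10 was highest at 4 of the 10 probe sets, those of Egr1, Egr3, Junb and Nr4a1, and lowest at Ccn2. Case animal 5 was highest at 3, both Jun 1374404_at and 1389528_s_at and Klf6 1388986_at. Case animal 8 was lowest at 4, those of Egr1, Jun 1374404_at, Junb and Klf6 1387060_at. Control animal 4 lay above the control mean at 9 of the 10. Its array also had the highest median signal of all probe sets, 55.6 against 45.2 to 51.8 on the others. Counts of this kind were not made over all probe sets tested, so whether they are particular to these genes is not known.

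**Figure D4:**
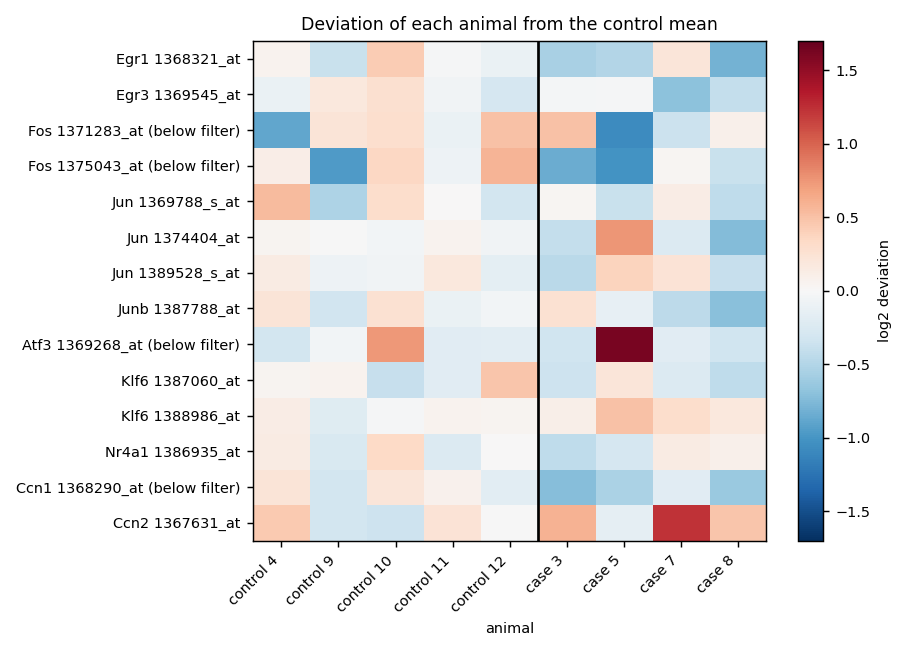
Deviation of each animal from the control mean on the log2 scale, for 14 probe sets (rows) and 9 animals (columns, controls left of the line). Red cells are above and blue cells below the control mean. Ccn1 is blue in all 4 case animals, Klf6 1388986_at is red in all 4, and Ccn2 is red in 3 of them, up to 1.23 in case animal 7.

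Correlations between the 10 tested probe sets were computed over the 9 animals for all 45 pairs, with exact permutation of one member of the pair, 2-sided, and Benjamini-Hochberg adjustment over the pairs. The median Pearson r was 0.07, and 28 of the 45 were above 0. Adjusted over the pairs, 0 passed the threshold of 0.05, and 3 had an unadjusted exact permutation p under 0.05 for Pearson's r.

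Those 3 pairs joined Jun with Jun, Egr1 with Jun, and Egr3 with Ccn2. The Jun probe sets 1374404_at and 1389528_s_at had r = 0.79 and Spearman's rho = 0.72 (n = 9, exact permutation p = 0.00716 and 0.0369, adjusted 0.161 and 0.415). The platform annotation ties both to the same sequence record. Without case animals 5 and 8, r was 0.59. Egr1 and Jun 1369788_s_at had r = 0.70 and rho = 0.72 (n = 9, exact permutation p = 0.0371 and 0.0369, adjusted 0.557 and 0.415), and r = 0.58 without case animal 8 and control animal 10. Egr3 and Ccn2 ran opposite, with r = -0.83 and rho = -0.78 (n = 9, exact permutation p = 0.00606 and 0.0172, adjusted 0.161 and 0.415), and r = -0.56 without case animals 7 and 8. Fluidics runs of 4, 4 and 1 arrays were too small for a correlation within each.

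Genes outside the set whose pattern over the 9 arrays was most like that of Egr1 were Slc9a3, which encodes the apical sodium-hydrogen exchanger of the proximal tubule (r = 0.90, rho = 0.92), the transmembrane protein gene Heg1 (r = 0.82, rho = 0.73) and Trappc10, a subunit of a vesicle transport complex (r = 0.82, rho = 0.80). For the brightest Jun probe set, 1369788_s_at, they were the sterol hydroxylase gene Cyp27a1 (r = 0.92, rho = 0.95), the calcium channel subunit gene Cacnb2 (r = 0.90, rho = 0.90) and the cohesin subunit gene Smc3 (r = 0.89, rho = 0.87). They are the highest of all tested genes by choice, so the values describe likeness alone. For Fos and Ccn1, with 0 probe sets tested, no such genes were sought.

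Related genes came from lists of other family members, other immediate early genes, and the pathways that control them. None of the probe sets in these lists passed after adjustment (limma). Of the other AP-1 and ATF family genes, 13 of 15 were on the array and 7 passed the filter with 7 probe sets. At an unadjusted p under 0.05, where 2.88% of all probe sets tested were higher and 3.81% lower in case, 1 was higher and 0 lower. It was Mafk, a small Maf partner of NRF2 and AP-1 proteins, with a log2 difference of 0.30 ± 0.12 (SE; limma adjusted p = 0.677). Atf4, the effector of the integrated stress response, stood at 0.29 ± 0.15 and Batf3 at -0.36 ± 0.31. The median of the list was -0.07.

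The list of other EGR, NR4A and KLF genes had 8 of 15 genes above the filter, with 9 probe sets and a median of -0.01. Klf15, which glucocorticoids induce and which acts in amino acid and glucose metabolism, was its one probe set with an unadjusted p under 0.05, higher in case. Its signals were 288.0, 282.5, 283.0 and 251.3 in case animals 3, 5, 7 and 8, and 206.1, 207.8, 180.3, 171.9 and 221.7 in control animals 4, 9, 10, 11 and 12. Here every case animal lay above every control, with a log2 difference of 0.48 ± 0.12 (SE; limma adjusted p = 0.530). Groups lay apart in this direction at 0.977% of all probe sets tested. The Egr corepressor genes Nab1 and Nab2 stood at -0.29 ± 0.17 and -0.25 ± 0.22.

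Other immediate early response genes were measured by 25 probe sets of 24 genes above the filter, out of 35 listed, with 14 differences above 0 and a median of 0.10. At an unadjusted p under 0.05 there was 1 higher and 1 lower. Ddit3, which encodes the stress factor CHOP, gave 132.8, 152.8, 98.2 and 115.1 in case animals 3, 5, 7 and 8. Its control signals lay between 64.6 and 94.9, below every case animal, for a log2 difference of 0.53 ± 0.16 (SE; limma adjusted p = 0.644). Of all probe sets tested, 0.977% had groups apart in this direction. Gadd45b (1372016_at), also in this list, lay below the filter and was not tested. It gave 27.7, 33.7, 32.7 and 24.6 in case animals 3, 5, 7 and 8, and 6.0 to 14.5 in control. Every case animal thus lay above every control at these dim signals, with a log2 difference of 1.28. The share of 0.977% covers only probe sets above the filter, and none was taken over dim ones.

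Tiparp, a target of the aryl hydrocarbon receptor, ran the other way. Its case signals lay between 89.3 and 122.6 and its control signals between 125.2 and 192.4, with a log2 difference of -0.42 ± 0.16 (SE; limma adjusted p = 0.644). Groups lay apart in this lower direction at 0.903% of all probe sets tested. Crem 1369737_at, of the AP-1 and ATF list and below the filter, also lay apart in this direction. It gave 0.5 to 1.7 in case and 3.0 to 7.6 in control, a log2 difference of -0.71. At 1369738_s_at, which passed the filter, Crem stood at -0.10. Rhob, an immediate early GTPase, differed by -0.41 ± 0.19. Unlike them, it had a case animal, number 5, at 290.1, near the top of the control range of 222.3 to 291.6.

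ERK, JNK and SRF pathway genes had 17 probe sets of 13 genes above the filter, of 28 genes listed, with 5 differences above 0 and a median of -0.09. None had an unadjusted p under 0.05. The ERK phosphatase gene Dusp6 stood at -0.55 ± 0.30 at its brightest probe set, 1387024_at, where case animal 8 gave 47.1 against 127.6 to 192.6 in the other case animals. Its other probe sets stood at 0.02 and 0.21. Dusp14 differed by -0.37 ± 0.21 and the JNK gene Mapk9 by -0.34 ± 0.19.

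Among the other CCN genes and the YAP pathway with its targets, 16 of 26 genes passed the filter with 19 probe sets, 9 of them above 0, and the median was -0.01. Amotl2, which YAP induces and whose product restrains YAP, was the one with an unadjusted p under 0.05. It gave 222.2, 277.3, 451.7 and 246.8 in case animals 3, 5, 7 and 8, and 181.9, 210.0, 222.7, 290.7 and 147.1 in control animals 4, 9, 10, 11 and 12. Case animal 7 was the highest animal at Amotl2, as it was at Ccn2, and the log2 difference was 0.48 ± 0.22 (SE; limma adjusted p = 0.744). Ccn3, a further CCN gene, differed by -0.19 ± 0.18 and Tead1, a partner of YAP, by 0.21 ± 0.20. Ankrd1, a widely used YAP target, lay below the filter at both of its probe sets.

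**Figure D5:**
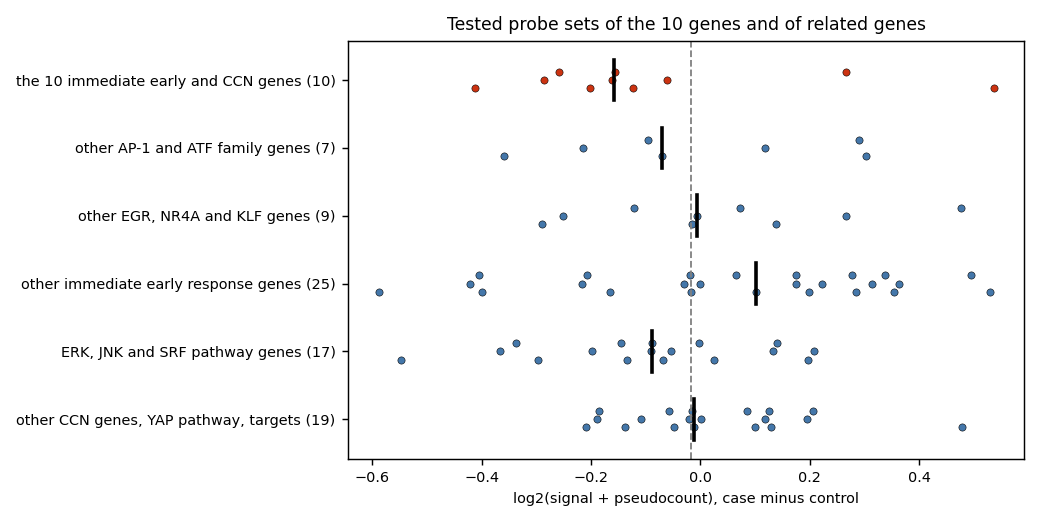
Log2 difference, case minus control, of each tested probe set (points) of the 10 immediate early and CCN genes and of 5 lists of related genes, with the list median as a bar and the median of all probe sets tested as a dashed line at -0.02. The medians lie between -0.16 and 0.10, and the points of every list fall on both sides of 0.

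Markers showed that the arrays carried kidney. All 7 proximal tubule markers and all 5 of the loop of Henle and distal tubule passed the filter. The adrenal cortex markers (3 of 4 on the array) and adipose markers (2 of 4) all had means below its level. The adipose marker Fabp4 gave 105.3 in case animal 5 and 69.7 in control animal 12, against 3.4 to 32.2 in the other animals. Plin1, the other adipose marker, ranged from 14.3 to 32.6. The adrenal marker Cyp21a1 gave 42.8 in control animal 11 and 5 to 32.7 in the other animals. Whether adipose or adrenal tissue added to the signals of these animals was not tested. Because Ccn1, Ccn2 and Egr1 are known in vascular and mesangial cells and podocytes, those markers were set beside them. Over all probe sets tested, the median difference was -0.02, and 3.81% were lower in case at an unadjusted p under 0.05. The 7 tested smooth muscle and mesangial probe sets had a median difference of -0.27, with 0 above 0 and 2 lower at an unadjusted p under 0.05. Their summed signal, with the one probe set below the filter, was 383.7 to 476.6 in case and 452.4 to 527.7 in control.

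The 8 endothelial probe sets had a median of -0.16, with 2 above 0 and 2 lower at an unadjusted p under 0.05, and a summed signal of 1116.4 to 1439.6 in case and 1251.0 to 1360.9 in control. Podocyte markers had a median of -0.02 over 8 tested probe sets, with 0 higher and 1 lower at an unadjusted p under 0.05, a Podxl probe set at -0.60 ± 0.25 (SE). The brighter Podxl probe set 1369895_s_at stood at -0.14 ± 0.17 (SE), and 1385823_s_at, below the filter, at -0.15. All 11 podocyte probe sets summed to 747.4 to 1083.9 in case and 765.5 to 1029.2 in control. Their part in the differences of Ccn1, Ccn2 and Egr1 was not tested. Collecting duct, leukocyte and blood cell markers had medians of -0.14, -0.21 and -0.19, with 0 probe sets at an unadjusted p under 0.05. In whole kidney RNA, fewer cells of a type and less RNA per cell cannot be told apart.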

How the data were processed

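Total RNA from 9 rat kidneys was measured on RAE230A arrays, per the file headers. The deposited table gives each probe set a linear intensity for every array. These values came already scaled by the authors, because each array's mean, after removal of 2% of values at either end, was close to 100.02. How probes were summarised, with which background correction and detection calls, is not given in the sources used here. With 9 animals, their small number sets the precision.

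Of 15923 probe sets, 57 controls were left out. Of the other 15866, 12783 had 1 gene symbol in the platform annotation, and 12748 of these matched a RefSeq gene of assembly GRCr8 by Entrez ID. No gene coordinates are given, because the annotation names no build. Promoters came from RefSeq, GRCr8.

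Values were used as log2(signal + 5.03). Probe sets with a mean above the 40th percentile were kept, 9519 in all. Case and control, as labelled, were compared using limma 3.58.1 under R 4.3.3 (lmFit, eBayes with an intensity trend, 2-sided, Benjamini-Hochberg, threshold 0.05), fitted to the whole table. A fluidics run was taken to begin wherever 10 minutes or more separated consecutive start times. All arrays shared 1 chip lot and 1 station, so neither could be a block. The steps were tested on simulated data. Python 3.11.15 with pandas 2.3.3 and NumPy 2.4.6 made the tables, and matplotlib 3.10.9 the figures.

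The 10 genes and the lists were chosen with earlier results of these data known. Genes named beside the 10 were the 3 with the smallest p in each related list, at the brightest tested probe set of each gene, and the 3 most like Egr1 and Jun by Pearson's r. Fosb, Gadd45b, Crem, Ankrd1, Fabp4, Plin1, Cyp21a1 and the further Dusp6 and Podxl probe sets were named after their values were seen. Alternatives were the pseudocount (1% and 50% of the median), a filter at the 60th percentile or none, median centring, quantile normalization, no trend, array weights, the fluidics run as a block and within runs, the actin 3'/5' ratio and (added after seeing the data) that of Gapdh, and leaving out each animal.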

Additional observations from a re-analysis of the deposited data

Results flagged for a closer look

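Atf3 (1369268_at) in case animal 5 had a signal of 17.5, far above the other 3 case animals on the log2 scale. The gap to the next animal was 0.928 of the group's range, past Dixon's 95% critical value of 0.829 for 4 samples. Atf3 in control animal 10 had a signal of 7.2, and its gap was 0.745 of the range, past 0.710 for 5 samples. Both signals lie well below the filter level of 33.3. In all, 28 groups were examined, 14 probe sets in case and in control, and chance flags about 1 in 20.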

How the results depend on the processing

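Of the 14 probe sets, 0 passed the adjusted threshold under every alternative in which they were tested. The count over all probe sets was 0 as reported and 1 with a pseudocount of 50% of the median, with no filter and with median centring. Leaving out one animal gave 0 to 53 over all probe sets, with 53 without case animal 5 and 1 without case animal 3, 7 or 8. The tested probe sets that changed sign were 3, of Jun and Nr4a1. Jun 1389528_s_at was at 0.027 with median centring and between -0.21 and 0.072 without one animal. Jun 1374404_at was at 0.026 when adjusted for the actin 3'/5' ratio and between -0.46 and 0.036 without one animal. With the Gapdh 3'/5' ratio as a covariate, an alternative chosen after seeing the data, these Jun probe sets were at 0.086 and 0.21. Nr4a1 was at 0.14 within fluidics run 2. The cause was not tested. The differences of Egr1, between -0.62 and -0.28, of Ccn1, between -0.63 and -0.46, and of Ccn2, between 0.30 and 0.77, held their sign without any one animal. Those of Egr3 and Junb lay between -0.38 and -0.15 and between -0.43 and -0.11. At the 60th percentile 4 of the 10 tested probe sets were left. Which probe sets had an unadjusted limma p under 0.05 also depended on the processing. Klf6 1388986_at did with quantile normalization, where Ccn2 did not, and with median centring. Egr1 did with array weights, adjusted for the Gapdh ratio, and without case animal 7 or control animal 9. Junb did without case animal 3, and Ccn1 in the fit with no filter. No paired analysis was possible because the labels give no replicate number that the groups share. Dim signals limit Fos, Atf3 and Ccn1, whose differences depend on the pseudocount.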
